A study of Mus musculus with 7 samples.

Results

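Among 17178 named genes on the array, 9 genes known from the midbrain and hindbrain were followed in the embryonic mouse subpallium: the Engrailed genes En1 and En2, the Iroquois genes Irx1, Irx2, Irx3 and Irx5, and the paired box genes Pax2, Pax5 and Pax8. They were chosen by name with the earlier comparison of these same arrays known, that is, from the log2 differences between arrays labelled Otx2 cKO and controls. Their differences between the groups are therefore given as descriptions, with no test. The genes were read on 12 probes, matched through the RefSeq transcript that each probe carries as its name.

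The series measured messenger RNA in the subpallium (septum and ganglionic eminences) of E12.5 mice, 1 female embryo of the CD-1 strain to an array, with 4 arrays labelled Control and 3 labelled Otx2 cKO. In the cKO embryos a floxed Otx2 allele was to be removed by the RxCre line, whose Cre is active in the forebrain apart from a dorsomedial, caudal part (cortical hem and choroid plexus). The labels do not name the alleles of the control embryos. The litter labels of controls 2 and 3 and of cKO 1 and 3 begin with the same number, 2, while control 1, control 4 and cKO 2 each carry a number of their own (3, 4 and 1). Slide 1 held controls 1 and 2 and cKO 1, and slide 2 held controls 3 and 4 and cKO 2 and 3.

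Otx2 and Gbx2 are homeobox genes that set the border between midbrain and hindbrain, where the isthmic organizer forms and releases FGF8. The Pax2, Pax5 and Pax8 proteins are paired domain factors that act early at this border, and the Engrailed proteins are homeodomain repressors that maintain it and pattern the tectum and cerebellum. Iroquois genes encode homeodomain factors of the TALE class that mark caudal forebrain, midbrain and hindbrain territories, and they lie in a pair of clusters. In the RefSeq gene table of GRCm38.p6, Irx1, Irx2 and Irx4 are consecutive coding genes on chromosome 13, and Irx3, Irx5 and Irx6 are consecutive coding genes on chromosome 8. The telencephalon is not a usual site of Engrailed expression.

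The targeted gene went against the label. Otx2 had log2 values, relative to the 75th percentile of the array, of 0.00, 0.33, 0.23 and 0.38 in controls 1 to 4 and of 1.63, 2.01 and 1.59 in cKO 1 to 3. It was higher by 1.51 ± 0.14 (SE, n = 4 and 3; limma, adjusted p = 0.0182). With litter number as a block, 4 of the 7 embryos sharing number 2, the difference was 1.33 and the call was lost (limma, adjusted p = 0.304), as was every other call of the fit across all genes. The position of its probe relative to the deleted part is unknown here, and a probe outside that part checks nothing, so each direction below rests on the labels. Per array, 68.4% to 72.2% of spots were well above background, and the log2 values of any pair of arrays correlated at 0.980 to 0.993. Of the 8 telencephalon and subpallium genes, all tested, limma called 0 (1 at an unadjusted p under 0.05). Their summed level was 110.5 to 120.9 times the 75th percentile in controls and 99.2, 100.6 and 111.1 times in cKO 1 to 3. Flagged spots leave Dlx2 out of the sum of cKO 1 and Dlx1 out of that of cKO 3. In this group only the sum of cKO 2 covers the same genes as the sums of the controls.

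Detection separated the 9 genes. A probe is called detected on an array where more than 50% of its unflagged spots were well above background by the scanner software's own test. En2, Irx1 and Irx2 were detected on all 7 arrays, as were 67.9% of all named genes. Pax2 was detected on 2 arrays, control 3 and cKO 2. En1, Irx3, Irx5, Pax5 and Pax8 were not well above background on any array, which held for 13.6% of all named genes. The RNA is from bulk tissue, so fewer cells of a type and less RNA per cell cannot be told apart. A probe below background does not show that its transcript is absent, because probes differ in how well they bind.

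Of the 2 Engrailed genes, En2 was high in 2 of the 3 arrays labelled cKO. Its probe is printed 10 times on each array. The mean processed signal of the unflagged spots, in the scanner's arbitrary units, was 46.7, 38.8, 70.1 and 70.7 in controls 1 to 4 and 486, 1731 and 82.1 in cKO 1 to 3. The array cKO 2 was the highest and cKO 1 the second, both far above every control, while cKO 3 stood only a little above the brightest control.

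The replicate spots give the technical spread within an array, not the spread between embryos. The coefficient of variation over spots was 4.99% in cKO 1, 7.85% in cKO 2 and 12.9% in cKO 3, and it ran from 8.54% to 21.8% in the controls. The dimmest spot of cKO 1 gave 439 and that of cKO 2 gave 1628, both above the brightest unflagged control spot at 97.6. The dimmest spot of cKO 3 gave 63.4, inside the range of the control spots.

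**Figure D1:**
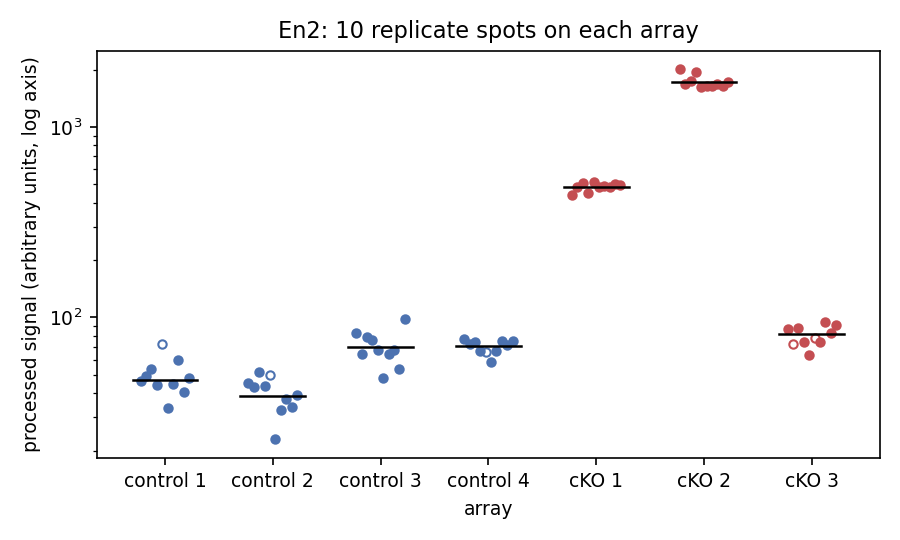
Processed signal of the En2 probe (arbitrary units, log axis) at its 10 replicate spots on each of the 7 arrays, controls in blue and arrays labelled cKO in red; open circles are spots flagged as outliers and the bar is the mean of the others. The spots of cKO 1 and cKO 2 lie above all control spots, whereas those of cKO 3, with a mean of 82.1, overlap them.

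On the scale of log2 signal relative to the array's 75th percentile, En2 was at -5.90, -5.89, -4.99 and -5.09 in the controls and at -2.20, -0.60 and -4.55 in cKO 1 to 3. Against the control mean of -5.47 ± 0.50 (SD, n = 4), the arrays cKO 1, cKO 2 and cKO 3 were 9.65-fold, 29.2-fold and 1.90-fold higher. The cKO mean was -2.45 ± 1.98 (SD, n = 3), a difference of 3.02 or 8.11-fold. The groups did not overlap, but the lowest cKO array was 1.36-fold above the highest control, and controls differed among themselves by up to 1.88-fold. The controls split by slide: controls 1 and 2, on slide 1, were both below controls 3 and 4, on slide 2. The array cKO 3 was on slide 2, so its 1.90-fold is against a mean that includes the lower controls of slide 1.

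The cKO arrays differed from each other more than the group means did on this gene. The highest was 15.4-fold above the lowest, and the SD of 1.98 was the 66th largest among 12671 genes with a value on every array, where the median was 0.18. The difference of 3.02 was the highest positive one among the 13339 genes tested, where the most negative was -3.51. En2 was chosen with this contrast known, so nothing is read from its ranks. The En2 difference ranked 11th without cKO 2, where it was 2.10 (4.28-fold). Among the 4 embryos of litter number 2 it ranked 8th at 2.07 (4.19-fold), and it was 3.70 within slide 1 and 2.47 within slide 2, where it ranked 7th and 4th. Without cKO 3 it was 4.07, and with normexp correction and quantile normalization 2.07.

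In the authors' deposited value table, which holds log2 values on a scale of its own, En2 lay between 6.36 and 6.90 in controls and between 7.06 and 10.52 in the arrays labelled cKO. The difference there was 2.26, with cKO 3 again the lowest of its group.

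En1, the other Engrailed gene, also has 10 spots on each array and gave no such signal. The mean of its unflagged spots was 0.237, -7.14, -4.47 and 0.447 in controls 1 to 4 and -3.57, -5.89 and -7.59 in cKO 1 to 3. On this scale 0 is the background that the scanner software subtracted. Only 1 unflagged spot in control 1 and 1 in control 4 were well above background, and none was in any array labelled cKO. Of the spots flagged as outliers and left out, 1 each in controls 1 and 3 and in cKO 2 and cKO 3 was well above background. No fold is given for En1, which was not detected on any array of either group.

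Irx1 stood higher in all 3 arrays labelled cKO on its brighter probe, A_52_P1092823, which is a single spot. The log2 values were -4.44, -4.24, -4.17 and -4.01 in controls 1 to 4 and -3.90, -3.43 and -3.43 in cKO 1 to 3. The group means were -4.22 ± 0.18 (SD, n = 4) and -3.59 ± 0.27 (SD, n = 3), a difference of 0.63 or 1.55-fold. The groups did not overlap, and the gap between control 4 and cKO 1 was narrow. Here cKO 3 was as high as cKO 2, unlike En2, for which cKO 3 was the lowest of its group.

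The difference of Irx1 varied with the probe and the processing. Its second probe, A_51_P149868, was well above background only in control 2, at -6.08, and sat at the floor of -7.59 on the other arrays. Averaging the probes lowered the difference to 0.13, and normexp correction together with quantile normalization, 2 steps changed at once, gave 0.37. It was 0.54 among the embryos of litter number 2, 0.44 within slide 1 and 0.66 within slide 2.

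Irx2, the neighbour of Irx1, overlapped between the groups. On its brightest probe, A_52_P398122, the log2 values were -6.11, -4.94, -6.21 and -6.01 in controls 1 to 4 and -5.54, -5.26 and -5.61 in cKO 1 to 3. Control 2 was the highest of all 7 arrays, and the 3 other controls were below every array labelled cKO. The means were -5.82 ± 0.59 (SD, n = 4) and -5.47 ± 0.18 (SD, n = 3), a difference of 0.35 that was 0.64 without control 2 and -0.01 within slide 1. The second probe, A_51_P320281, was well above background in control 2 at -5.69 and in cKO 2 at -7.05, and its difference was -0.14. The third, A_52_P635312, was at the floor on every array.

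**Figure D2:**
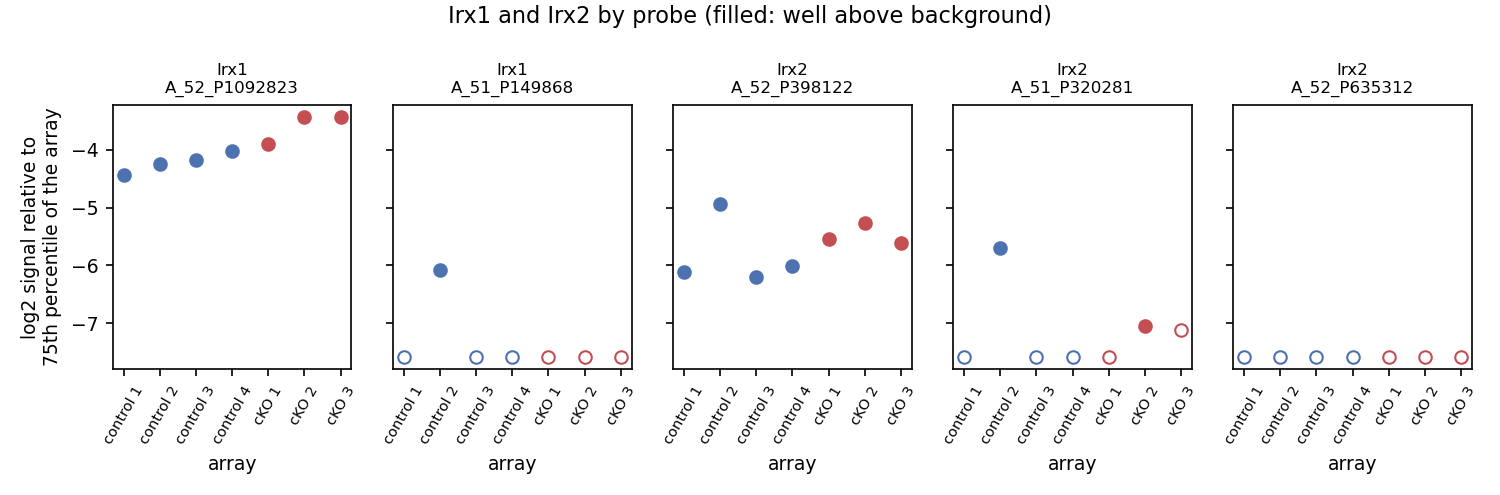
Log2 signal of each Irx1 and Irx2 probe relative to the 75th percentile of its array, for 4 control arrays (blue) and 3 arrays labelled cKO (red); filled points are well above background and open points are not. Irx1 separates the groups on 1 probe only, and control 2 is the highest array on the dimmer Irx1 probe and on the first and second Irx2 probes.

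Irx3 and Irx5, on chromosome 8, were below detection. The single Irx3 probe gave between -2.29 and 3.20 units on every array. The Irx5 probe gave -0.613, -1.05, 4.38 and 4.32 in controls 1 to 4 and 3.79, 14.5 and 0.280 in cKO 1 to 3, highest in cKO 2 but not well above background there. Irx4 and Irx6, the remaining genes of the clusters, were measured. Irx4 was detected on 7 arrays and differed by 0.24 ± 0.26, and Irx6 was detected on 5 and differed by 0.62 ± 0.39 (SE; limma, adjusted p = 0.776 and 0.615).

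Of Pax2, Pax5 and Pax8, only Pax2 reached detection on any array. The mean signal of its unflagged spots was 11.6, 14.2, 20.7 and 14.9 in controls 1 to 4 and 14.2, 18.9 and 17.7 in cKO 1 to 3. The spots counted as well above background were 1 of 9, 1 of 10, 6 of 10 and 3 of 9 in the controls and 2 of 10, 5 of 9 and 3 of 8 in cKO 1 to 3. Control 3 was the highest array, and the groups overlapped fully on the log2 scale, at -7.57 to -6.76 against -7.30 to -6.77.

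Pax5 and Pax8 were not detected. Pax5 gave 2.08 to 10.52 units over the 7 arrays, and control 4 was the highest. Pax8 gave 5.69, 3.99, 4.63 and 2.90 in controls 1 to 4 and 10.9, 25.2 and 1.32 in cKO 1 to 3. As with Irx5, cKO 2 had the highest value, cKO 3 was the lowest of its group, and none of them was well above background.

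**Figure D3:**
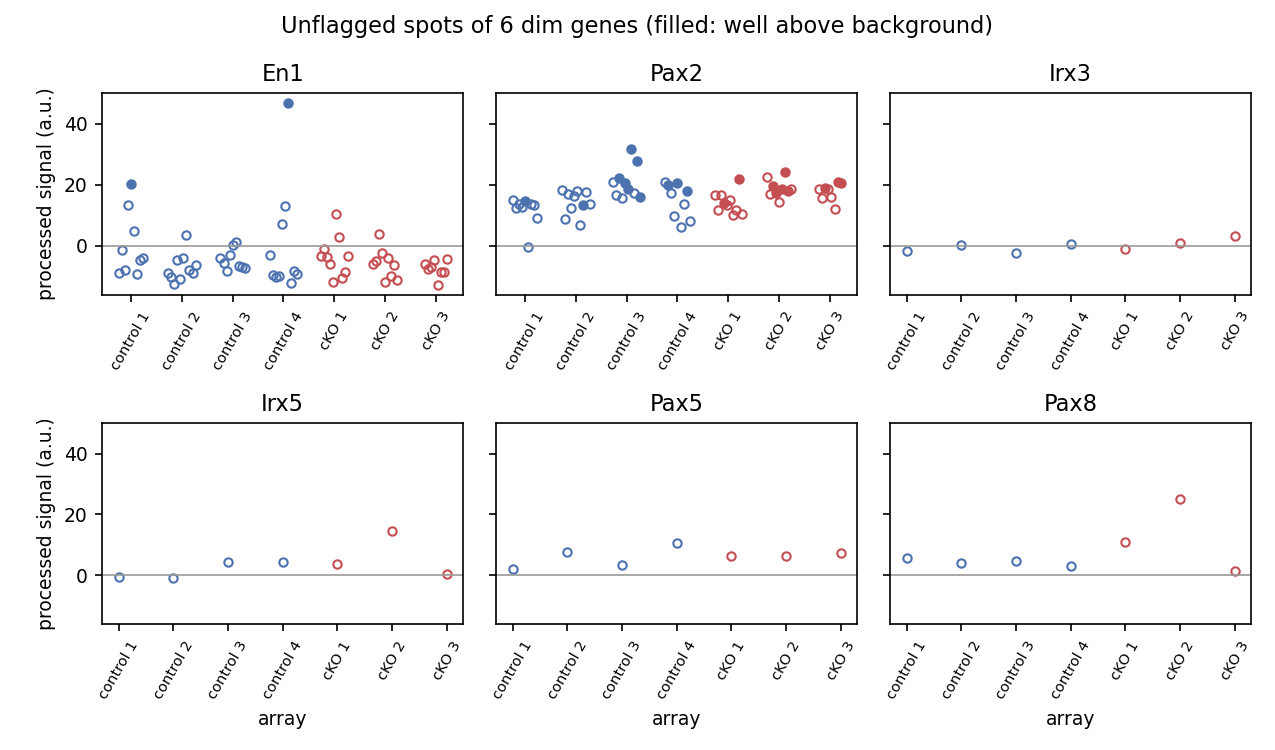
Processed signal (arbitrary units, linear axis, 0 is the subtracted background) of the unflagged spots of 6 dim genes on 4 control arrays (blue) and 3 arrays labelled cKO (red); filled points are well above background. En1 and Pax2 have 10 spots on each array and the others 1; no point of Irx3, Irx5, Pax5 or Pax8 is filled.

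Of the 9 genes, 3 passed the filter for the test across all genes (detected on at least 3 of 7 arrays), En2, Irx1 and Irx2, and limma called 0 of them. At an unadjusted p under 0.05 there were 2 of these, against 1428 of all 13339 genes tested. Over all 13339 genes limma called 26 at an adjusted p under 0.05, 11 higher (0.0825%) and 15 lower (0.112%), which is 0.195% in all. Every cKO array was above every control for 2 of the 3, as it was for 4.85% of all genes tested, and below every control for 0, against 6.99%. Since the genes were chosen with this contrast known, nothing is read from these counts. The count of 26 depended on single arrays: it was 12, 7, 0 and 0 without controls 1 to 4 and 32, 3 and 0 without cKO 1 to 3 (at an unadjusted p under 0.05, 411 genes were higher and 625 lower without control 3, 517 and 802 without control 4, and 371 and 492 without cKO 3).

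Other genes of the midbrain, isthmus, hindbrain and caudal diencephalon, and other Irx and Pax family genes, were taken from 5 lists with 55 genes. Of these 35 were tested, 1 rose, 2 fell and 32 did not pass. Their median difference was 0.23, against 0.01 over all genes tested. The lists too were chosen with earlier results of these data known, so nothing is read from their counts or medians. The 3 that passed belong to the midbrain and isthmus transcription factors, of which 10 of 18 were tested (median -0.01). Otx2 rose. Gbx2, which acts on the hindbrain side of the border and also in the MGE and thalamus, fell by 1.91 ± 0.19, from -0.20, -0.24, -0.26 and -0.46 in controls 1 to 4 to -1.79, -2.63 and -2.17 in cKO 1 to 3 (limma, adjusted p = 0.0221). Tal2, a helix-loop-helix gene of midbrain GABAergic neurons, fell by 2.29 ± 0.28 (limma, adjusted p = 0.0427). With slide as a block the adjusted p of Tal2 was 0.105, and with litter number as a block that of Gbx2 was 0.331 and that of Tal2 0.292 (limma).

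Unlike En2, both lower genes were as far from the controls in cKO 3 as in the other 2 arrays of the group, with Tal2 at -4.36, -4.67 and -4.45 in cKO 1 to 3 and between -2.91 and -1.62 in the controls. The 3 calls fell to 2 without control 1 and without cKO 1 and to 0 without control 2, 3 or 4 or cKO 2 or 3, where limma gave 9, 9, 9, 10 and 11 of the list genes at an unadjusted p under 0.05.

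The isthmic signals and FGF feedback genes held 9 tested members of 12, none past the test (median 0.38, 7 positive and 2 negative; 0 had an unadjusted p under 0.05). The FGF antagonist gene Spry2 differed by 0.48 ± 0.21 and the ETS factor gene Etv4, induced by FGF, by 0.45 ± 0.30 (limma, adjusted p = 0.484 and 0.631). Fgf8 was at -2.63, -3.07, -3.07 and -1.71 in controls and at -2.83, -0.65 and -4.77 in cKO 1 to 3. It was highest in cKO 2, as En2 was, and lowest in cKO 3.

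The 8 genes of the list named caudal diencephalon were all tested and limma called 0 (median 0.19; 3 had an unadjusted p under 0.05). Sim1, a factor of hypothalamic and prethalamic neurons, differed by 1.63 ± 0.52 and the progenitor gene Dbx1 by 1.12 ± 0.30 (limma, adjusted p = 0.357 and 0.303). Of 11 hindbrain and rhombomere genes 3 were tested and limma called 0 (1 had an unadjusted p under 0.05). Hoxb4, a Hox gene of the caudal hindbrain, differed by -1.20 ± 0.79 (limma, adjusted p = 0.631). In the same list Hoxa2, Hoxb1, Hoxb2, Hoxb3 and Atoh1 were not detected on any array. The other Irx and Pax genes had 5 tested members of 6 and limma called 0 (median 0.24; 0 had an unadjusted p under 0.05), with a difference of 0.32 ± 0.56 for Pax9 (limma, adjusted p = 0.876).

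**Figure D4:**
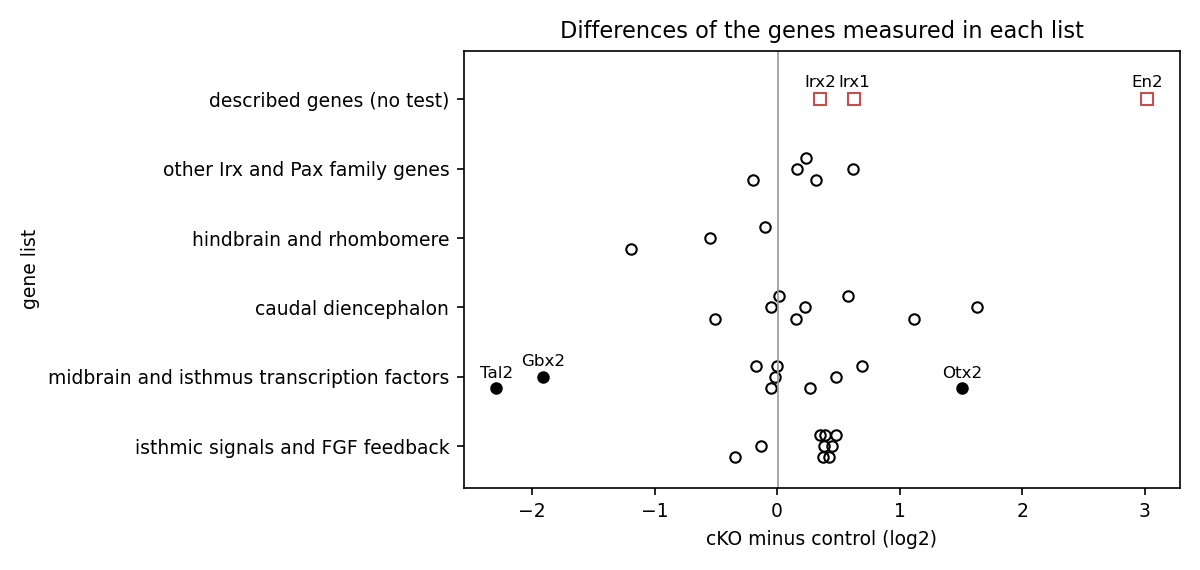
Difference between arrays labelled cKO and controls (log2, horizontal axis) for each tested gene of 5 lists, with filled points for the 3 genes past the limma threshold and, as open squares with no test, En2, Irx1 and Irx2; the grey line is the median of all genes tested. En2 lies at 3.02, to the right of every gene of the lists, of which Sim1 is the highest at 1.63.

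Markers of other cell types moved with some of these values, and their part in the differences was not tested. The summed level of the 11 mesenchyme and pericyte genes, all tested and 0 called by limma (0 at an unadjusted p under 0.05), was 3.07 to 24.4 in controls, in multiples of the 75th percentile, and 3.24, 39.8 and 6.58 in cKO 1 to 3. It was highest in cKO 2, the array with the most En2. The sums of control 1 and cKO 2 lack Dcn, whose spots were flagged there. In cKO 1, where En2 was 9.65-fold above the control mean, the sum was close to that of control 2, the lowest control. Lum, which marks meningeal and other fibroblasts, was at the floor in both of these arrays. The surface ectoderm genes (4 of 5 tested, 0 called and 0 at an unadjusted p under 0.05) summed to 0.199 to 0.312 in controls and to 0.225, 0.552 and 0.202 in cKO 1 to 3, and Trp63 was not detected on any array.

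Choroid plexus genes (5 of 6 tested, limma called 0, with 0 at an unadjusted p under 0.05) summed to 0.161 to 0.301 in controls and 0.178, 0.280 and 0.248 in cKO 1 to 3, and Ttr was not detected on any array. Of the optic and eye genes 5 of 8 were tested, and the list summed to 1.34 to 1.96 in controls and 2.03, 2.07 and 1.86 in cKO 1 to 3. Of the otic and placodal genes 6 of 7 were tested and Hmx2 and Hmx3, also hypothalamic, rose by 1.72 ± 0.16 and 2.11 ± 0.24 (SE; limma, adjusted p = 0.0182 and 0.0323). The endothelial (6 tested), microglia and macrophage (3) and erythroid (5) genes had 0 calls by limma, and 0 at an unadjusted p under 0.05. The summed level of all 3 lists was highest in cKO 2, the array with the most En2, though for the erythroid genes only just. The endothelial sum was 4.92 to 8.54 in controls and 5.74, 10.19 and 4.67 in cKO 1 to 3. The microglia and macrophage sum was 0.899 to 1.35 in controls and 1.04, 1.62 and 0.904 in cKO 1 to 3. The erythroid sum, at 173 to 263 in controls, was 221, 266 and 183 in cKO 1 to 3. By the median log2 value relative to the control mean, the erythroid list was higher in control 3 (0.47) than in cKO 2 (0.45). The otic and placodal list summed to 1.57 to 1.82 in controls and to 2.82 to 4.02 in the arrays labelled cKO.

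**Figure D5:**
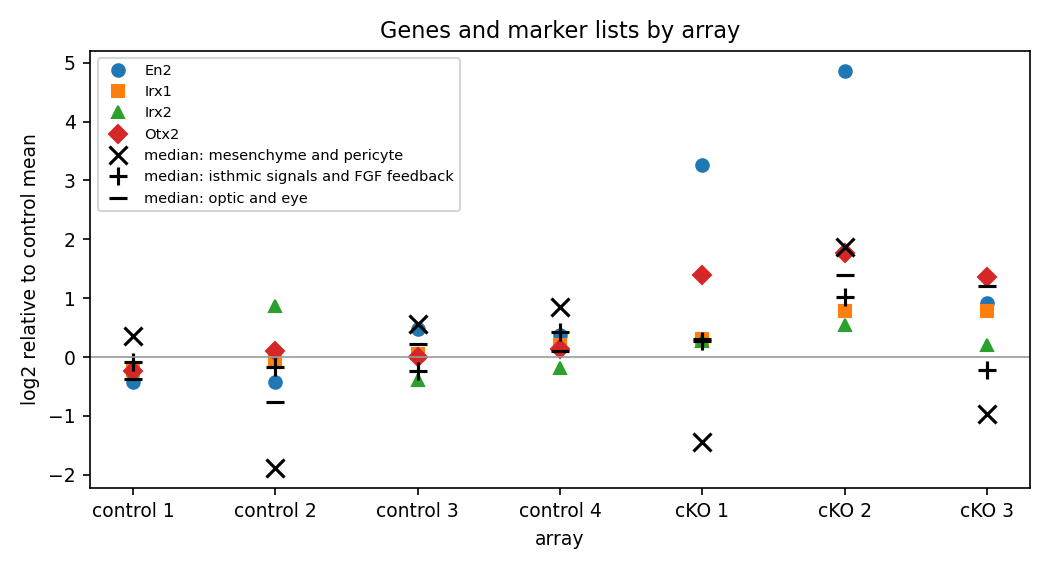
Log2 values relative to the control mean on each of the 7 arrays for En2, Irx1, Irx2 and Otx2 (coloured symbols) and the median of 3 gene lists (black symbols). En2 is at 3.27, 4.87 and 0.92 in cKO 1 to 3, whereas the mesenchyme median is at -1.44, 1.87 and -0.96.

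Within the 7 arrays the 3 detected genes did not follow one profile. Pearson's r over the 7 arrays was 0.71 between En2 and Irx1, 0.35 between En2 and Irx2 and 0.36 between Irx1 and Irx2, as descriptions that share the arrays, their scaling and the group difference. Of the 12670 other genes with a value on every array, those most like En2 were Akap4 (r = 0.98), which encodes an anchoring protein of the sperm flagellum, Vwc2 (r = 0.97), which encodes a secreted BMP antagonist, and Gdpd2 (r = 0.96), a phosphodiesterase gene. Akap4 had log2 values of -5.55, -3.85 and -7.18 in cKO 1 to 3 and was at or near the floor in all 4 controls. Irx1 was most like Smim3, Mest and Arfip1 (r = 0.99 for each), and Irx2 most like Padi4 (r = 0.97), Spata1 (r = 0.96) and Iqce (r = 0.96).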

How the data were processed

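Amplified RNA of 7 embryos carrying the Cy3 dye was read on 1-colour Agilent arrays, per the labels' protocols. The deposited spot intensity was background-subtracted and detrended within each array by Agilent Feature Extraction 10.7.3.1, per the file headers (10.5 per the submitters' processing notes). The authors also deposited log2 values with no stated normalization, so that their scaling and centring stay unknown; their order followed the unsubtracted spot signal within each array (rank correlation at least 0.99999), and column medians were 7.61 to 7.64.

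Control spots and spots flagged as outliers (1.24% to 2.51% per array) were left out. Signals were divided by the array's 75th percentile over the 43379 non-control spots, floored at a log2 value of -7.59, the highest of the arrays' lowest detected signals, and averaged over spots of a probe on the log2 scale. Of 41174 probes 24844 were named through RefSeq accessions (GRCm38.p6, names and gene order only), giving 17178 genes with the brightest probe for each. The 13339 tested were detected on at least 3 of 7 arrays and had enough unflagged values. Groups were compared with limma 3.58.1 in R 4.3.3, group as the only term, with Benjamini-Hochberg adjustment over all genes tested and a threshold of 0.05; the fit was tested on simulated data. The number of arrays limits the precision.

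The genes followed and the lists were chosen with earlier results of these data known. Besides the 9 genes, those named were the members of the lists past the threshold or, in a list with none, the 2 with the largest difference, and for each detected gene the 3 others with the highest correlation. Some genes that this rule names, or that the lists hold, are not reported here. Any further name was chosen after its values were seen. Alternatives covered background correction, scaling, flags, floor, probes, filters, slide, litter and replicate number as blocks, the variance model, and leaving out each array. Normexp was run on the median spot signal, since mean spot signals were not used here. Replicate numbers in the titles were not taken to pair embryos: same-numbered arrays' deviations from their group means correlated at 0.115, -0.532 and 0.028.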

Additional observations from a re-analysis of the deposited data

Results flagged for a closer look

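Among 32 probes or genes examined in the 4 control arrays, 6 had 1 array whose gap to the nearest of the others, over the whole range, exceeded Dixon's 95% critical value for 4 samples. Chance gives about 1 in 20 in a single group, but the count of 6 is not comparable with that rate: 3 of the values are set by the floor, and Padi4 and Spata1 were chosen for following Irx2, which is itself among the 6. For Irx2 the array was control 2 on both detected probes, with a share of 0.842 on A_52_P398122 and 1 on A_51_P320281. Control 2 was also alone on the dimmer Irx1 probe, A_51_P149868 (1). In these values of 1 the 3 other controls sit together at the floor, so the share can take no other value. Of the genes with profiles most like the detected ones, Padi4 and Spata1 had control 2 alone at the top (0.979 and 0.85) and Akap4 had control 3 (1, with the 3 others at the floor).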

How the results depend on the processing

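The En2 difference was positive in all 20 alternatives (2.07 to 4.07), as was that of Irx1 (0.13 to 0.79). Irx2 ran from -0.01 to 0.67 and Pax2 from -0.03 to 0.28. The dim genes' differences depend on the floor: lowering it by 1 moved Pax8 from 0.30 to 0.93 and Irx5 from 0.03 to 0.36, neither of them detected.

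The count of 26 genes was 42 with normexp and quantile normalization, 43 in the authors' value table, 62 with a variance trend, 13 with slide as a block, 1 with no filter, and by limma 0 within slide 1, slide 2 or litter number 2 and 0 with litter as a block. At an unadjusted p under 0.05 those 4 fits had 253, 388, 319 and 326 genes higher and 165, 825, 393 and 399 lower. The single array of a group within a slide was assumed to vary like the others. With the replicate block the count was 0 (limma; without adjustment, 573 higher and 812 lower); this block changed no call of the 9 genes, of which 0 were called in any setting. Leaving out 1 array gave 0 to 32. Over the same fits the 3 list genes fell to 0 with no filter, within either slide, within litter number 2 and with litter or replicate block, (10, 7, 8, 7, 7 and 13 at an unadjusted p under 0.05, limma), and were 0 to 2 leaving out 1 array; Tal2 was also lost with the lower floor, the mean of probes and slide as a block (limma, adjusted p = 0.0518, 0.0539 and 0.105). Scaling by the 75th percentile over probes, an alternative chosen after seeing the data, gave 28 genes and an En2 difference of 3.03. The cause of these changes was not tested.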

Other observations

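Pax3, a paired box gene of the dorsal neural tube and midbrain, was chosen after its values were seen. It was detected in cKO 1 and cKO 2 only, with log2 values of -5.93, -4.85 and -7.43 in cKO 1 to 3 and between -7.59 and -7.41 in the controls. The order within the 3 arrays labelled cKO was that of En2, but cKO 3 was below control 4, unlike En2. Pax7, its paralog, was at -7.59, -5.33 and -7.59 in cKO 1 to 3 and at -6.38 in control 4, the highest control. Neither was detected on enough arrays to be tested.

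The coding genes beside the Engrailed loci in the RefSeq gene table of GRCm38.p6 include the paralogs Insig1, next to En2, and Insig2, next to En1, which encode sterol-regulated proteins. They differed by 0.52 ± 0.44 and 0.07 ± 0.10 (SE, n = 4 and 3; limma, adjusted p = 0.704 and 0.839). Fto, which lies beside Irx3, differed by -0.21 ± 0.085 with every array labelled cKO below every control (limma, adjusted p = 0.456). The same separation was found for 6.99% of all genes tested.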
